A study of Danio rerio with 2 samples.

Results

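A set of 41 DNA replication and mitosis genes was examined in cells sorted from zebrafish embryos. The genes were listed by name and found through the protein names given in the files, and they comprised 23 S-phase genes and 18 mitotic genes. Of the 41, 40 were found, and 39 had the required minimum of 10 reads over both libraries, of 15252 gene IDs that reached it and 22017 with a read. The embryos carried Tg(fli1a:EGFP)y1, in which the promoter of the ETS factor gene fli1a drives EGFP, and were of the Tuebingen strain according to the study's methods. They were dissociated at 22 to 24 hours post fertilization (hpf) and sorted by fluorescence into GFP+ cells, labelled endothelial, and GFP- cells, labelled non-endothelial. The study used the sort to look for genes that act in the developing vasculature. Each group was 1 RNA-seq library without a replicate, and the labels name no treatment or mutation. A population sorted on fli1a is mixed, and fewer cells of a type and less RNA per cell cannot be told apart in such libraries.

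Cells copy their genome once per division. Before S phase the origin recognition complex, Cdc6 and Cdt1 load the ring-shaped MCM helicase onto DNA. GINS later becomes part of this helicase, which moves with the fork, where PCNA clamps the polymerases to the template. In mitosis cyclin B with Cdk1, the polo and aurora kinases and the spindle checkpoint order the condensation, attachment and separation of chromosomes. Transcripts of these genes are commonly read as signs of cycling cells, and many tissues of the embryo hold dividing cells at this stage.

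The GFP+ library held 4.44 M counted reads and the GFP- library 4.11 M (M, 1000000), and the floor of 3 reads was 0.675 and 0.731 RPM, the number of reads per M counted. Of 12 listed vascular markers 8 were matched by symbol and 6 reached 10 reads, and those not matched were not examined. All 6 were called higher in GFP+ cells, with summed levels of 1337 RPM there and 64.5 RPM in GFP- cells. Among the vascular markers cdh5 and tek were at 0 in GFP- cells, with 5 and 7 reads in GFP+ cells. The 9 erythroid markers summed to 14675 and 160 RPM, with slc4a1a at 0 in GFP- cells, and the 5 myeloid markers to 176 and 10.5 RPM. A further myeloid marker under the minimum, cybb, had 1 read in GFP+ cells and 0 in GFP- cells. The label "endothelial" therefore covered a population with blood cell transcripts, and hemoglobin took 6.59% of GFP+ reads against 0.0553% of GFP- reads. The study also reported high expression of pharyngeal arch genes in the GFP+ cells, and markers of the arches were not examined here. In GFP- cells the sums were larger for 7 neural progenitor markers (422 and 1322 RPM in GFP+ and GFP- cells), 7 neuron markers (733 and 1061), 5 muscle markers (592 and 2210) and 7 epidermis markers (1898 and 4094). Of the neuron markers 3 were called lower and none higher, and elavl4 (0.66) and stmn2a (0.56) had log2 ratios above 0. The neural progenitor marker pax6b and the muscle marker tnnt3a were at 0 in GFP+ cells, with 2 and 1 reads in GFP- cells. The part of these mixtures in the results given here was not tested.

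The replication and mitosis genes were close to each other in the libraries. Together they took 0.795% of GFP+ reads and 0.827% of GFP- reads. Ratios are GFP+ over GFP-, scaled to the library totals, with 0.5 reads added to each library. Only 3 of 39 genes (7.69%) were more than 2-fold apart, all of them higher in GFP+ cells (orc1, bub1 and ttk), whereas 33.8% of all genes tested were. Few reads widen ratios, so the same was counted among genes with at least 200 reads, where bub1 alone of 32 genes (3.13%) was past 2-fold, against 24.1% of all such genes. By this count, which takes the most-read gene ID of each gene, none had a log2 ratio under -1, and the lowest was that of rrm2 at -0.76. With the second gene IDs of 4 genes counted as well, 5 of 43 gene IDs (11.6%) were past 2-fold, and 2 of 35 (5.71%) with at least 200 reads. The additions were IDs of mcm3 and mcm6, both under -1. The interquartile range of the 39 log2 ratios was 0.70, from -0.26 to 0.44, against 1.30 for all genes. Among genes with at least 200 reads the gap was smaller, with 0.62 for the set and 0.96 for all genes. In the plot of cumulative distributions the curves of both classes are accordingly steeper than those of all genes and of the deeper-read genes. The deeper-read genes were not matched to the set in level. Their median in GFP+ cells was 23.9 RPKM (reads per kilobase scaled to the library total), against 87.4 for the set at that depth.

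**Figure D1:**
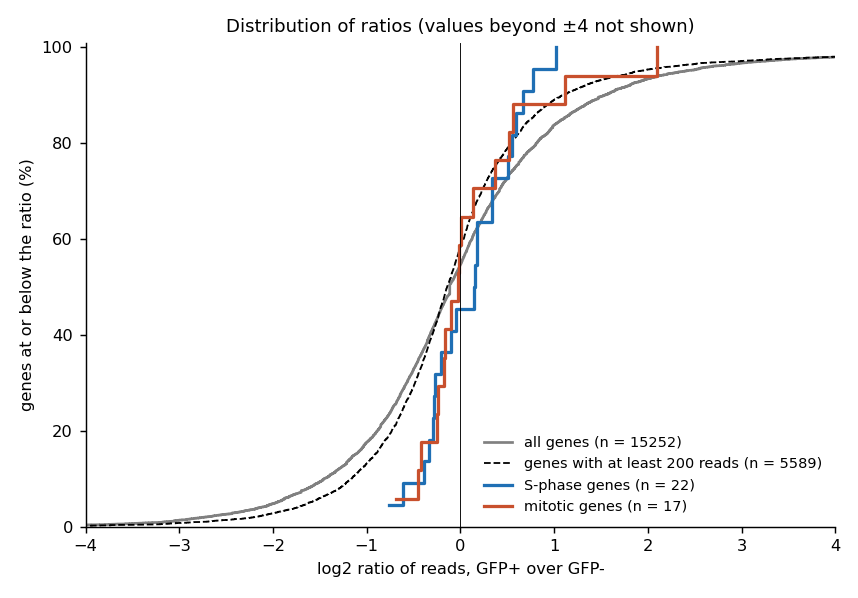
Cumulative share of genes (y axis, percent) at or below each log2 ratio of GFP+ over GFP- reads (x axis), for all 15252 genes tested, the 5589 genes with at least 200 reads, the 22 S-phase genes and the 17 mitotic genes. The curves of both classes begin at -0.76 and -0.68, and 3 of their genes lie above 1.

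The reads of each gene were set against the rest of its library by Fisher's exact test (two-sided, Benjamini-Hochberg adjustment over all 15252 genes), and 11 of the 39 genes (28.2%) were called higher in GFP+ cells at an adjusted p under 0.05, and 13 (33.3%) were called lower. The same test called 22.4% of all genes higher and 28.1% lower. Among genes with at least 200 reads it called 28.6% higher and 42.2% lower, and among the 32 genes of the set with that depth 31.3% and 40.6%. The shares of calls were thus near the background, and calls fell in both directions. Such a test compares a pair of libraries rather than the conditions, and no replicate checks the difference. With an assumed coefficient of variation of 0.2 between replicates, edgeR's exact test called only bub1 and ttk, both higher (adjusted p = 0.0498 and 0.033), against 9.21% of all genes higher and 8.94% lower. With 0.4 it called none of the 39, against 2.14% of all genes higher and 0.741% lower. The median log2 ratio was 0.15 for the 22 S-phase genes and -0.02 for the 17 mitotic genes, beside -0.11 for all genes. The mitotic median turned positive under 4 of 5 other scalings (0.07 to 0.33), as did that of all genes under median-of-ratios size factors and β-actin reads. The S-phase median was 0.05 with the gene IDs of each gene summed or without ccne2 and cdk2, and turned to -0.04 with a minimum of 50 reads. The S-phase genes held 6 higher and 8 lower calls, and the mitotic genes 5 and 5. Scaled to library totals, the sums of reads went the other way from the medians. For the mitotic genes this holds only where their median is below 0. Summed S-phase levels were 5796 RPM (GFP+) and 6272 RPM (GFP-), of which pcna alone made up 1332 and 1630 RPM. Summed mitotic levels were 2151 and 2000 RPM.

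**Figure D2:**
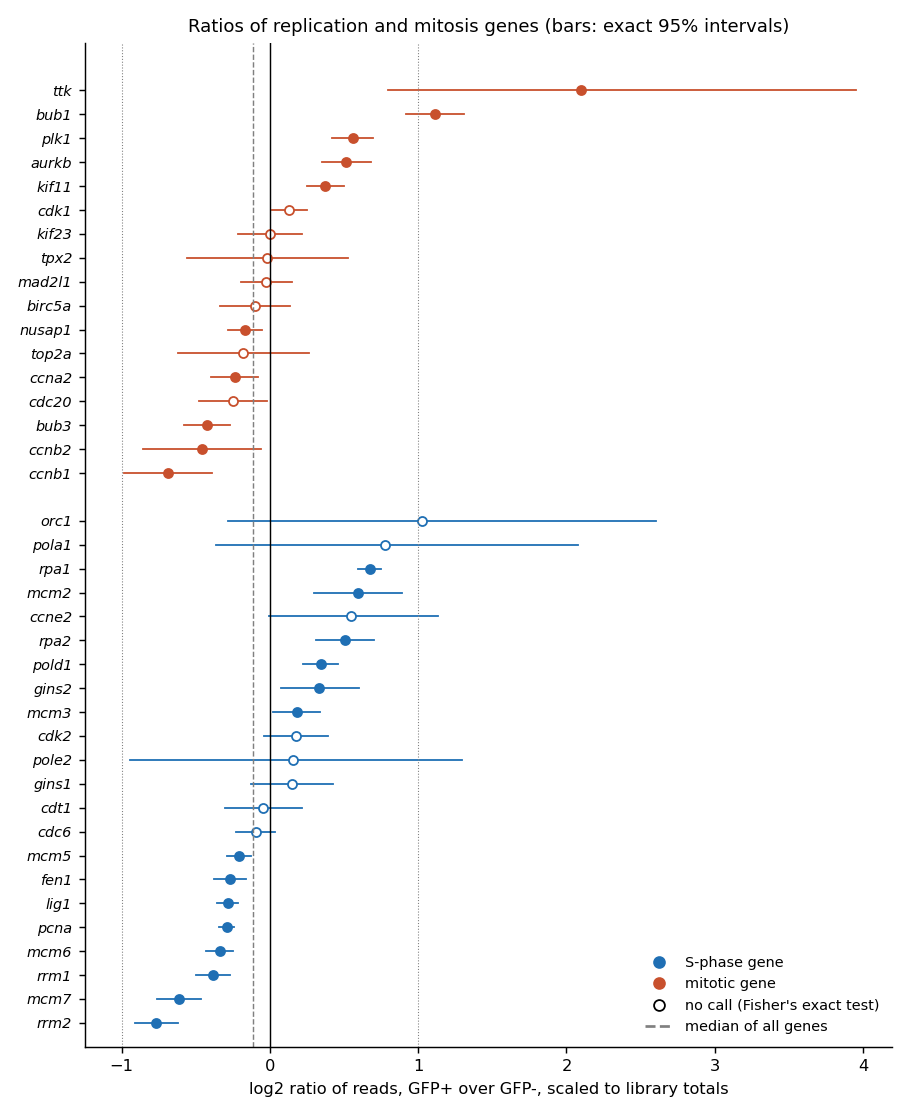
Log2 ratio of GFP+ over GFP- reads (x axis) of the 39 genes, 17 mitotic above and 22 S-phase below, each ordered by ratio; bars are exact 95% intervals for counting error, open circles had no call, and the dashed line is the median of all genes at -0.11. The ratios of each class run through 0, from rrm2 at -0.76 to orc1 at 1.02 and from ccnb1 at -0.68 to ttk at 2.10.

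By the most-read gene ID of each gene, the MCM subunits, which form the ring of the replicative helicase, did not share a direction. With the gene IDs of each gene summed, mcm3 turned to -0.19 and was called lower, so that only mcm2 was higher. The gene mcm2 (an unplaced scaffold of Zv9, NA237, from 11389 to 31977) had 253 GFP+ reads and 155 GFP- reads, a log2 ratio of 0.59 (95% interval 0.30 to 0.89), and was called higher. The gene mcm3 (chromosome 16, from 54766749 to 54780384) had 724 and 590 reads, a log2 ratio of 0.18 (0.02 to 0.34), and was also called higher, with an adjusted p of 0.047 by Fisher's exact test. The other 3 subunits found were lower in GFP+ cells. The gene mcm5 (chromosome 3, from 27023667 to 27035630) had 2247 and 2399 reads, a log2 ratio of -0.21 (-0.29 to -0.12). The gene mcm6 (chromosome 6, from 12880021 to 12897310) had 1863 and 2177 reads, a log2 ratio of -0.34 (-0.43 to -0.25). The gene mcm7 (chromosome 14, from 201291 to 212779) had 645 and 912 reads, a log2 ratio of -0.61 (-0.76 to -0.47). The subunits at the ends of this order, mcm2 and mcm7, differed by 1.20 on the log2 scale (exact 95% interval 0.88 to 1.54 for counting error). The interval does not allow for their choice as the extremes. Nor does it allow for coverage, which was at most 14.1% of the mcm2 transcript and 23.7% of that of mcm7. A difference between genes does not depend on how the libraries are scaled. The split around 0 does: scaled to β-actin reads, mcm5 was at 0.14 and called higher, mcm6 was at 0.01 with no call, and mcm7 remained lower. With median-of-ratios size factors mcm5, at -0.07, had no call. With totals without mitochondrial reads mcm3, at 0.17, had none. No protein name matched mcm4, which was not analysed here.

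A pair of gene IDs carried the protein name of mcm3 and moved apart. The gene ID on chromosome 16 gave the values above, and the one on chromosome 20 (from 34794805 to 34808351) had 51 GFP+ reads and 230 GFP- reads. Its log2 ratio was -2.28 (-2.75 to -1.84), the lowest of any gene ID of the set with 10 reads. With the reads of both IDs summed, mcm3 had 775 and 820 reads and a log2 ratio of -0.19 (-0.34 to -0.05), so that its call turned from higher to lower. A second gene ID of mcm6 on chromosome 2 had 7 and 19 reads, a log2 ratio of -1.49 (-3.05 to -0.24), and left the summed ratio at -0.35. The counts are of uniquely mapped reads, and how alike the sequences of these gene IDs are was not examined, so the split between the IDs of mcm3 is uncertain.

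Levels can be compared between genes only per kilobase of transcript, as RPKM of the most-read transcript. On this scale mcm5 stood at 193 in GFP+ cells and 223 in GFP- cells, mcm6 at 130 and 165, mcm3 at 55.1 and 48.6, mcm7 at 54.4 and 84.0, and mcm2 at 19.1 and 12.7. The highest subunit was 10.1 times the lowest in GFP+ cells and 17.6 times in GFP- cells. Reads covered 99.9% and 99.8% of the mcm5 transcript, but 23.6% and 23.7% of that of mcm7 and 13.8% and 14.1% of that of mcm2. Per kilobase actually covered, the subunits were closer. These reads are not scaled to the library totals, so they compare subunits within a library only. In GFP+ cells mcm2 had 617 reads per covered kilobase, mcm3 548, mcm5 860, mcm6 610 and mcm7 1026, a spread of 1.87 times. In GFP- cells the values were 369, 445, 918, 700 and 1456, a spread of 3.95 times. Incomplete coverage was shared by the libraries and common in the set. Of its 32 genes with at least 200 reads, 11 (34.4%) were less than 50% covered in both libraries, against 19.1% of all genes of that depth. The median difference in coverage between the libraries was 1.01 percentage points for the set and 2.95 for all genes of that depth.

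**Figure D3:**
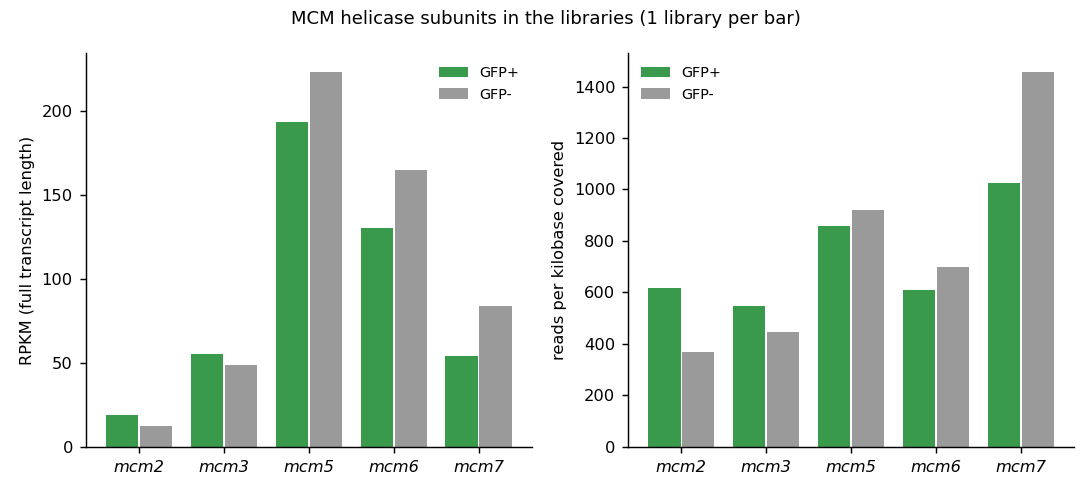
Levels of 5 MCM subunits in GFP+ (green) and GFP- cells (grey), 1 library per bar without error bars, as RPKM over the full transcript length (left) and as reads per kilobase covered (right). On the RPKM scale mcm2 is at 19.1 and 12.7 beside mcm5 at 193 and 223, whereas per covered kilobase all subunits lie between 369 and 1456. The right panel is not scaled to the library totals, so its bars compare subunits within a library only.

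At the fork, the genes rpa1, rpa2 and pold1 were called higher in GFP+ cells and pcna, fen1 and lig1 lower. The gene rpa1 (chromosome 15, from 25834680 to 25875330), which encodes the largest subunit of replication protein A, had 3785 GFP+ reads and 2195 GFP- reads. Its log2 ratio was 0.67 (0.60 to 0.75), a 1.59-fold difference with the smallest adjusted p of the set (Fisher's exact test, 2.83e-68). Its partner rpa2 had 551 and 358 reads, a log2 ratio of 0.51 (0.31 to 0.70), which differed from that of rpa1 by 0.16 (-0.05 to 0.37). Both subunits were thus higher in GFP+ cells by amounts that counting error does not separate. The sliding clamp gene pcna (chromosome 10, from 42187909 to 42192762) was the most highly expressed gene of the set. It had 5918 and 6692 reads, or 922 and 1128 RPKM, a log2 ratio of -0.29 (-0.34 to -0.24), and was called lower. Ordered by RPKM, it held rank 82 among all genes in GFP+ cells and rank 70 in GFP- cells. The log2 ratio of rpa1 was 0.96 (0.87 to 1.06) above that of pcna.

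The enzymes that finish lagging-strand fragments resembled pcna. The flap endonuclease gene fen1 had 1328 GFP+ reads and 1476 GFP- reads, a log2 ratio of -0.27, and the DNA ligase gene lig1 had 3005 and 3385 reads, a log2 ratio of -0.29. Both were called lower. Scaled to β-actin reads instead, pcna was at 0.058 and called higher, while fen1 and lig1, at 0.08 and 0.06, had no call. The genes rpa1 and rpa2 remained higher under all scalings, but most of these moved every ratio upward and could not have lost the calls. Among the polymerases, pold1, the catalytic subunit of polymerase delta, was called higher with 1340 and 977 reads and a log2 ratio of 0.34 (0.22 to 0.46). The catalytic subunit of polymerase alpha, pola1, had 19 and 10 reads (log2 ratio 0.78, -0.36 to 2.08, adjusted p = 0.29 by Fisher's exact test), and a subunit of polymerase epsilon, pole2, had 17 and 14 (0.16, -0.94 to 1.30). At this depth no difference was detectable for pola1 and pole2.

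Ribonucleotide reductase, which makes the deoxyribonucleotides, was lower in GFP+ cells in both subunits. The large subunit gene rrm1 had 1164 GFP+ reads and 1404 GFP- reads, a log2 ratio of -0.38 (-0.50 to -0.27). The small subunit gene rrm2 (chromosome 20, from 29518377 to 29524126) had 661 and 1038 reads, or 73.1 and 124 RPKM, a log2 ratio of -0.76 (-0.91 to -0.62). Among the most-read gene IDs this was the lowest ratio of the set, 1.70-fold lower in GFP+ cells. A second gene ID with the protein name of rrm2, on chromosome 19, had 429 and 406 reads and a log2 ratio of -0.03 (-0.23 to 0.17). Both IDs were found by protein name, while the symbol assigned to each was rrm2l. Summed over both IDs rrm2 had 1090 and 1444 reads and a log2 ratio of -0.52 (-0.63 to -0.40), still called lower. The call of rrm1 was lost when the libraries were scaled to β-actin reads, and that of rrm2 was not.

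None of the 3 origin licensing genes was called. The gene cdc6 had 938 GFP+ reads and 926 GFP- reads, a log2 ratio of -0.09 (-0.23 to 0.04), and cdt1 had 256 and 244, a log2 ratio of -0.04 (-0.30 to 0.21). Both ratios turned positive under 4 of the 5 other scalings, but these 4 moved every ratio upward. When scaled to β-actin reads, 1 of these 4, both genes were called higher (0.25 and 0.30). The origin recognition subunit gene orc1 had 16 and 7 reads. Its log2 ratio of 1.02 was the largest among the S-phase genes, but its interval ran from -0.28 to 2.60 and it was not called (adjusted p = 0.16 by Fisher's exact test). Of the GINS subunits, gins2 was called higher with 288 and 211 reads (log2 ratio 0.33, 0.07 to 0.60), and gins1, with 246 and 205 reads, had no call (0.15, -0.12 to 0.42). Their ratios differed by 0.19 (-0.20 to 0.57), which does not set them apart. Cyclin E2 and Cdk2, which drive entry into S phase, had positive ratios without a call. Both were called higher under 4 of the 5 other scalings, but these 4 moved every ratio upward. The gene ccne2 had 70 and 44 reads (log2 ratio 0.55, -0.01 to 1.13) and cdk2 had 406 and 332 (0.18, -0.04 to 0.39).

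Among the mitotic genes the A and B cyclins were lower in GFP+ cells and their kinase was not. The gene ccnb1 (chromosome 5, from 55149484 to 55153246) had 162 GFP+ reads and 241 GFP- reads, or 18.8 and 30.5 RPKM. Its log2 ratio was -0.68 (-0.98 to -0.39), the lowest of the mitotic genes. The gene ccnb2 had 97 and 123 reads, a log2 ratio of -0.45 (-0.86 to -0.06), and was called lower with an adjusted p of 0.044 by Fisher's exact test. Cyclin A2, which acts in both S phase and mitosis, had 622 and 678 reads for ccna2, a log2 ratio of -0.24 (-0.40 to -0.08). A neighbouring gene ID with the same protein name had 198 and 234 reads and was also called lower (-0.35, -0.63 to -0.08). Of the calls of the most-read gene IDs, ccnb1's held under all scalings, while those of ccnb2 and ccna2 were lost under 4 of them, and ccna2 stood at 0.11 with β-actin reads. By contrast, cdk1 had 1290 and 1089 reads and a log2 ratio of 0.13 (0.01 to 0.25), which missed the threshold (adjusted p = 0.055 by Fisher's exact test). It was called higher under 4 of the 5 other scalings, but these 4 moved every ratio upward. Its ratio was 0.82 (0.50 to 1.14) above that of ccnb1. In RPKM cdk1 stood at 213 and 194, above ccna2 at 178 and 210, and far above ccnb1 and ccnb2 at 13.5 to 30.5 RPKM.

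The mitotic kinases plk1 and aurkb were higher in GFP+ cells by nearly the same amount. The polo kinase gene plk1 had 1105 GFP+ reads and 693 GFP- reads, a log2 ratio of 0.56 (0.42 to 0.70). The aurora B kinase gene aurkb had 766 and 495 reads, a log2 ratio of 0.52 (0.35 to 0.68). Their ratios differed by 0.04 (-0.17 to 0.26). Survivin, which holds aurora B in the chromosomal passenger complex, was at 299 and 296 reads for birc5a, a log2 ratio of -0.10 (-0.34 to 0.14), with no call. The aurora A kinase gene aurka had 5 and 4 reads, under the minimum, and no ratio was read from it.

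The spindle checkpoint genes spread most. The gene bub1 (chromosome 20, from 2639203 to 2669899), a checkpoint kinase at kinetochores, had 714 GFP+ reads and 305 GFP- reads, or 41.7 and 19.3 RPKM. Its log2 ratio was 1.11 (0.92 to 1.31), or 2.16-fold, with an adjusted p of 1.47e-30 by Fisher's exact test. Its binding partner at kinetochores, bub3, went the other way, with 639 and 792 reads and a log2 ratio of -0.42 (-0.58 to -0.27), which was at -0.07 without a call when scaled to β-actin reads. The ratios of bub1 and bub3 were 1.54 apart (1.29 to 1.79), the widest of the 11 pairs compared. These pairs were not planned, and some join genes at the ends of the observed ratios, which the intervals do not allow for. The checkpoint kinase gene ttk had 25 and 5 reads and the largest log2 ratio of the set, 2.10 (0.80 to 3.95, adjusted p = 0.0019 by Fisher's exact test). The value sums 3 transcripts, with 22 and 2, 1 and 3, and 2 and 0 reads, of which the second went the other way. Reads covered 2.45% and 1.79% of the most-read transcript, so most of the reads rest on a short stretch of sequence. The checkpoint effector mad2l1 had 560 and 526 reads (log2 ratio -0.02, -0.20 to 0.15), and cdc20, the activator of the anaphase-promoting complex that the checkpoint restrains, had 302 and 331 (-0.25, -0.48 to -0.02). Neither passed the test.

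Genes for chromosome structure and the spindle held 1 higher and 1 lower call among 5 (20% each), beside 22.4% and 28.1% of all genes. The kinesin gene kif11, whose motor separates the spindle poles, was called higher with 1224 GFP+ reads and 873 GFP- reads (log2 ratio 0.37, 0.25 to 0.50). The microtubule-binding gene nusap1 was called lower with 1223 and 1269 reads (-0.17, -0.28 to -0.05). Its ratio turned to 0.18 with a higher call when scaled to β-actin reads. The lower call was also lost with TMM factors, median-of-ratios size factors and totals without hemoglobin reads. The genes kif23, for a cytokinesis kinesin, top2a, for DNA topoisomerase II, and tpx2, for an activator of aurora A, had log2 ratios of 0.00, -0.18 and -0.02 without a call. Their counts ranged from 58 reads for tpx2 in GFP- cells to 376 for kif23 in GFP+ cells.

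**Figure D4:**
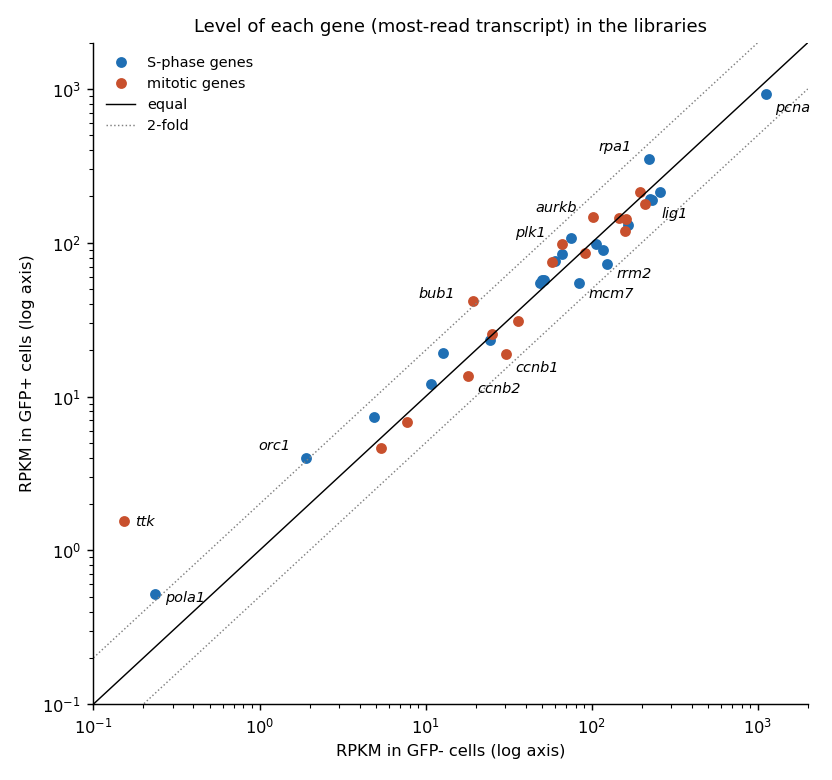
RPKM of the most-read transcript of each of the 39 genes in GFP- cells (x axis, log scale) and GFP+ cells (y axis, log scale), S-phase genes in blue and mitotic genes in red, with lines of equality and of 2-fold. Levels run from under 1 RPKM (pola1) to 922 and 1128 RPKM (pcna), and the points beyond the 2-fold lines are those of bub1, ttk, orc1 and pola1, the last by its most-read transcript alone.

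In RPKM, the span of levels within the set was therefore much wider than the difference between the libraries. In GFP+ cells the 39 genes ranged from 0.518 RPKM for pola1 to 922 for pcna, with a median of 75.0 RPKM, and 13 of them exceeded 100 RPKM. In GFP- cells they ranged from 0.153 for ttk to 1128 for pcna, with a median of 66.3 RPKM, and 15 exceeded 100 RPKM. For all genes the median level was 5.46 RPKM (GFP+) and 5.49 RPKM (GFP-). The level of 35 of the 39 genes in GFP+ cells and of 34 in GFP- cells was above that median.

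Further genes of the cell cycle were taken from lists, which were written with earlier results of these data known. Of 45 other replication genes, 40 were matched by symbol and 38 reached 10 reads. They had 12 higher (31.6%) and 5 lower calls (13.2%), beside 22.4% and 28.1% of all genes, and a median log2 ratio of 0.28. The extremes among those with at least 50 reads were tk1, thymidine kinase, with 212 GFP+ reads and 57 GFP- reads (log2 ratio 1.77, 1.35 to 2.23), and orc4, an origin recognition subunit, with 134 and 199 (-0.68, -1.01 to -0.36). Other genes were singled out after their values were seen because they belong to complexes of the set. The GINS subunit gins4 had 175 and 76 reads (1.08) and gins3 had 102 and 139 (-0.56), while the third subunit of replication protein A, rpa3, had 215 and 203 reads (-0.03) and had no call. The GINS subunits thus had calls in both directions. Thymidylate synthase, tyms, had 1031 and 477 reads, a log2 ratio of 1.00, while both subunits of ribonucleotide reductase were lower.

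Of 52 other mitosis genes, 45 were matched by symbol and 40 reached 10 reads, of which 15 were called higher and 0 lower. Their median log2 ratio was 0.24. Among those with at least 50 reads, the condensin gene ncapg was highest with 43 GFP+ reads and 7 GFP- reads (log2 ratio 2.42, 1.34 to 3.90), and the cyclin gene ccnb3 lowest with 48 and 66 (-0.57, -1.14 to -0.01), which had no call. Before adjustment, Fisher's exact test gave a p under 0.05 for 1 gene below 0, against 17 above. The 5 other scalings moved every ratio alike, at most 0.014 downward, so they could not turn the median of 0.24. The proliferation marker mki67, singled out after its values were seen, had 10613 and 7670 reads, the most of this list, and a log2 ratio of 0.36 (0.31 to 0.40). The separase gene espl1, likewise singled out, had 1320 and 602 reads, a log2 ratio of 1.02 (0.88 to 1.16). Higher calls made up 37.5% of the other mitosis genes and 22.4% of all genes, lower calls none of them and 28.1% of all genes, and whether the list differs from other genes was not tested.

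The regulators of the passage from G1 to S phase were mixed, and their calls stand beside 22.4% higher and 28.1% lower calls over all genes. Of 7 G1 cyclins and their kinases 6 reached 10 reads, with a median log2 ratio of -0.46, of which 2 were called higher and 4 lower. They ran from ccne1, a cyclin E gene, with 20 GFP+ reads and 63 GFP- reads (log2 ratio -1.74, -2.57 to -1.02), to ccnd2a, a cyclin D gene, with 155 and 85 (0.75, 0.36 to 1.15). The cyclin E genes thus had ratios of opposite sign, with ccne2 at 0.55 and not called. Of 11 E2F and DP transcription factors, which control many S-phase genes, 10 were matched by symbol and 9 reached 10 reads. They had 0 higher and 4 lower calls, and 1 gene above 0 had p under 0.05 before adjustment (Fisher's exact test). Their median was -0.29, which turned to 0.06 with β-actin reads. They included e2f5 with 25 and 55 reads (-1.24, -1.99 to -0.54) and e2f4 with 1014 and 860 (0.12, -0.01 to 0.26). Of 15 cell cycle inhibitors 14 were matched by symbol and 13 reached 10 reads, with 4 higher (30.8%) and 5 lower calls (38.5%) and a median of 0.02. The inhibitor of cyclin-dependent kinases cdkn1ca had 183 and 522 reads (-1.62, -1.88 to -1.38), and rbl1, which encodes the pocket protein p107, had 533 and 254 (0.95, 0.74 to 1.18). In the strip plot of these lists the regulators spread further to the left than the replication and mitosis genes themselves.

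**Figure D5:**
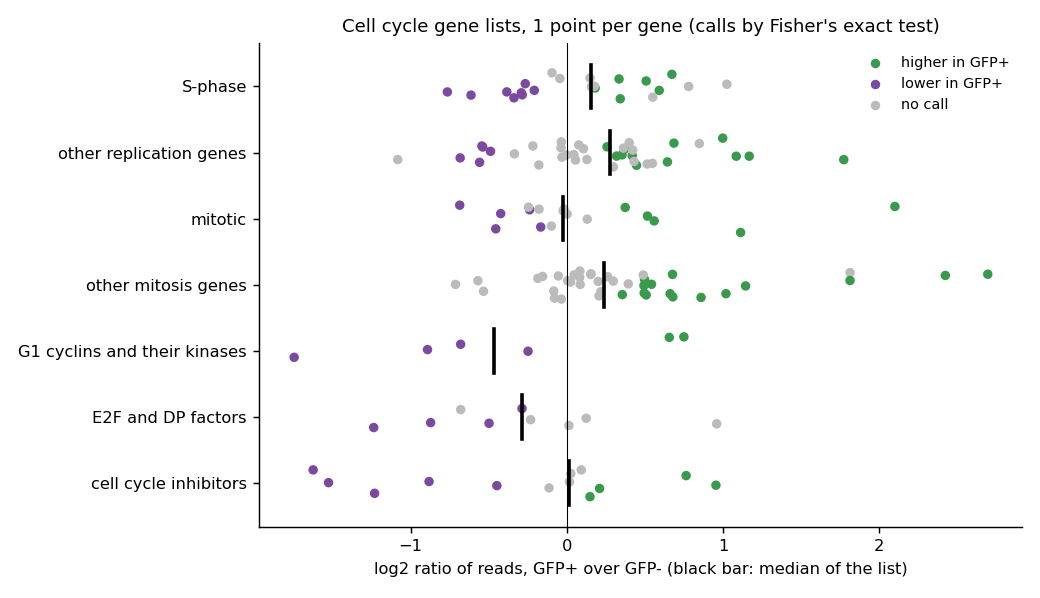
Log2 ratio of GFP+ over GFP- reads (x axis) for each gene of 7 lists with at least 10 reads, coloured by call, with the median of each list as a black bar; vertical scatter within a list has no meaning. The medians are 0.15 and -0.02 for the S-phase and mitotic genes, 0.28 and 0.24 for the other replication and mitosis genes, and -0.46, -0.29 and 0.02 for the G1 cyclins, the E2F and DP factors and the inhibitors.

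Most ratios of the set are small, and the scaling of the libraries bears on their sign. Median-of-ratios size factors moved every log2 ratio by 0.14 and β-actin reads, of which there were 27068 in GFP+ cells and 31872 in GFP- cells, by 0.35. Scaled to β-actin, 22 of the 39 genes were called higher and 3 lower, beside 5173 and 2555 of all 15252 genes. Of the calls over all genes 66.9% were higher, against 44.3% with library totals. Relative to the median of all genes, a comparison that the scaling does not change, the S-phase median was 0.27 higher and the mitotic median 0.09 higher. These gaps do depend on low counts and transcripts: with a minimum of 50 reads that of the S-phase genes was 0.08, and with the most-read transcript of each gene that of the mitotic genes was 0.01. The 95% interval lay above the median of all genes for 14 of the 39 genes, below it for 10, and spanned it for 15.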

How the data were processed

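RNA-seq reads of the GFP+ and GFP- libraries were used, as the authors deposited them. Per the file headers, the authors gave for each Ensembl transcript of Zv9 with a read the count of uniquely mapped reads, the length, the coverage as a percent of the length, and RPKM, that is reads per kilobase scaled to the library total. Recomputing RPKM gave the deposited values. The aligner and the counter are not given in the sources used here. The members and lists were chosen with earlier results of these data known.

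Members were found by protein name. For 5 members with 2 gene IDs (mcm3, mcm6, rrm2, pole2 and ccna2) the most-read ID was used, and their sum was an alternative chosen after seeing the data. Counts were summed over the transcripts of a gene ID, and ratios were computed for gene IDs with at least 10 reads over both libraries after adding 0.5. Two-sided Fisher's exact tests were adjusted by the Benjamini-Hochberg method over 15252 gene IDs, with a threshold of 0.05. For a ratio, the share of a gene's reads that came from GFP+ cells was given its 95% Clopper-Pearson (exact) interval, and a difference between genes its conditional exact interval. Both kinds of interval, and the floor of 3 reads, take in counting error alone. The 11 pairs of genes compared were not among the planned results, and their intervals do not allow for how the pairs were chosen. The Fisher step was tested on simulated reads with known fold changes and counting error alone. Variation between replicates was not simulated, so the simulation says nothing on it.

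Genes given in full were the MCM subunits, pcna, the cyclins and their kinases, the 3 largest and 3 smallest ratios of each class, and from each further list the largest and smallest ratio with at least 50 reads. Genes of the further lists were matched by symbol. The alternatives were TMM factors, median-of-ratios size factors, totals without hemoglobin or mitochondrial reads, β-actin reads, 5 reads added, no minimum or 50 reads, the most-read transcript, members matched by RefSeq accession, other splits of the classes, and the exact test of edgeR, assuming a biological coefficient of variation of 0.2 or 0.4. Promoter sequences were not analysed here. Scripts ran in R 4.3.3 with edgeR 4.0.16 and in Python 3.11.15 with SciPy 1.17.1, NumPy 2.4.6 and pandas 2.3.3.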

Additional observations from a re-analysis of the deposited data

How the results depend on the processing

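Leaving out replicates could not be tried, since GFP+ and GFP- are 1 library each. No paired analysis was possible because the libraries have no second replicate to pair. Scaled to β-actin reads, the median log2 ratio was 0.50 for the S-phase and 0.33 for the mitotic genes. In this setting 22 genes were called higher and 3 lower, beside 5173 and 2555 of all 15252 genes. In the set 5 genes were past 2-fold, and the share over all genes was not computed for this scaling. The log2 ratios of mcm5 (0.14), pcna (0.058) and nusap1 (0.18) turned positive with a call. With the gene IDs of each member summed, an alternative chosen after seeing the data, mcm3 turned to -0.19. Members found by RefSeq accession were 19, of which 5 were called higher, 7 lower and 0 past 2-fold, since fewer genes entered. A minimum of 50 reads left 35 genes and 1 past 2-fold, and moved the S-phase median to -0.04. In edgeR's exact test with an assumed coefficient of variation of 0.2, 2 genes were called higher (bub1 and ttk) and 0 lower, and with 0.4, 0 higher and 0 lower, against 327 higher and 113 lower calls over all genes. The counts of calls therefore rest on the assumption that the libraries differ by counting error alone. The other alternatives left the counts of higher and lower calls within 1.5 times those given, but their balance could turn. From 11 higher and 13 lower calls, the counts went to 14 and 10 with TMM factors or totals without hemoglobin reads. With median-of-ratios size factors they went to 14 and 9. Over all 15252 genes, these scalings gave 3827 and 3742, 3781 and 3784, and 4045 and 3548 calls, in that order. Of the 5 other scalings, 4 moved every log2 ratio upward alike (by 0.10 to 0.35). The higher calls they kept or gained therefore say nothing on stability, while the lower calls they lost depend on the scaling. Of the 13 lower calls, 3 were kept under all 8 alternatives tried for each gene, and 9 with β-actin reads left aside. Of the 11 higher calls, 10 were kept. Adding 5 reads leaves Fisher's test as it was. The genes orc1, pola1, pole2 and ttk, with 23 to 31 reads over both libraries, are limited by depth.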
